A study of Mus musculus with 18 samples.

Results

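The AP-1 genes described here are *Fos*, *Fosb*, *Fosl1*, *Fosl2*, *Jun*, *Junb* and *Jund*, which were chosen by name as the 7 of 54446 counted genes whose identifiers carry these symbols in GENCODE M21. The rule names the genes without a threshold on their values, and the choice of this family was made with earlier results of these data known. They were read in nascent RNA of mouse embryonic stem (mES) cells that were either wild type (WT) or lacked *Tet2* (Tet2-KO, Tet2-/-), an enzyme that oxidizes 5-methylcytosine. Cells of both genotypes grew in serum with LIF, the GSK3 inhibitor CHIR99021 and the MEK inhibitor PD0325901, and were passaged on gelatin to remove feeder cells. Dishes received 1 mM 5-ethynyl uridine (EU), a uridine analogue that marks newly made RNA, for 10, 20 or 40 min, and RNA that carried the label was pulled down through biotin before sequencing. With 3 libraries for each genotype at each EU time, there were 6 groups and 18 libraries. A single line of each genotype is named, so the replicates were dishes of these lines and not separate clones, and the p-values measure only the spread between such dishes.

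AP-1 is a family of dimeric transcription factors with a basic region that contacts DNA and a leucine zipper that holds the dimer together. Jun proteins pair with each other or with Fos proteins, whereas Fos proteins need a Jun partner. Several members are immediate early genes, which are transcribed within minutes of a signal from MAP kinases, through factors already bound at their promoters, and their transcripts are short-lived. The MEK inhibitor was in the medium of WT and Tet2-KO cells, and it acts on the ERK branch of this signal.

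Between 17931614 and 23069143 reads per library fell on genes and between 44162 and 512186 on the ERCC spike-in, an added mix of synthetic RNAs. Levels are given on 2 scales, as reads per 1000 ERCC reads, and in CPM, the reads of a gene scaled to 1000000 gene reads, which is its share of the library. The scales differed in their centre, because the median log2 fold change of all 19910 genes tested, Tet2-KO over WT averaged over the EU times, was 0.70 per ERCC read and 0.0027 as a share of gene reads. The libraries labelled Tet2-KO still held reads of *Tet2*, with 48.4 to 273 per 1000 ERCC reads against 25.6 to 190 in WT over the EU times. In CPM its mean was lower in Tet2-KO at each time, at 535 ± 5.12 (SD, n = 3) against 596 ± 5.71 in WT at 10 min, 589 ± 6.51 against 690 ± 10.5 at 20 min and 639 ± 4.27 against 737 ± 3.42 at 40 min. Counts over the whole gene do not show a deletion of part of it, so the genotype of a library is taken from its label, and Tet2-KO below means the libraries so labelled. Of 10 stem cell markers, 9 were read in both genotypes, and *Sox2* was at 0 in every library. *Sox2* lies inside *Sox2ot* on the same strand, a position where 99.8% of 426 protein-coding genes were at 0. *Zfp42* had a median of 534 CPM in WT and 116 in Tet2-KO, while *Pou5f1* had 85.85 and 105.8 and *Tbx3* 239.5 and 297.6. Averaged over the EU times, 2 of the 9 tested markers were higher and 6 lower as a share of gene reads. Per ERCC read 6 were higher and 1 lower. Of all genes tested, 28.6% were higher and 27.9% lower as a share, and 80.5% and 4.15% per ERCC read. The summed level of 11 feeder fibroblast markers was 33.7 to 34.2 CPM in WT at 10 min, 21.0 to 22.4 in Tet2-KO at 20 min and 5.78 to 12.6 in the other 4 groups, with *Lum* at 0 in all WT libraries. Markers of primitive endoderm summed to 14.9 to 21.8 CPM in WT and 14.7 to 19 in Tet2-KO.

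None of the 7 genes overlaps another on its own strand in the mm10 annotation. *Fos* lies at chr12:85473890-85477273 on the plus strand and *Fosb* at chr7:19302696-19310051 on the minus strand. *Fosl1*, at chr19:5447547-5455946 on the plus strand, overlaps *Ccdc85b* on the opposite strand, and *Fosl2* lies at chr5:32135801-32157842 on the plus strand. *Jun*, a gene of 1 exon at chr4:95049034-95052222 on the minus strand, overlaps the antisense gene *Junos*. *Junb*, at chr8:84974484-84978718 on the minus strand, overlaps the end of *Prdx2*, and *Jund*, a gene of 1 exon at chr8:70698949-70700616 on the plus strand, overlaps the antisense gene *Gm11175*. The library kit keeps strand, and protein-coding genes inside a gene of the opposite strand were at 0 in 11.3% of 811 cases, so the counts were read as strand-aware.

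The promoters of *Fos*, *Jun* and *Junb* are shown because these genes were lower in Tet2-KO on both scales below. Each is the 250 bases before the start site in RefSeq (GRCm38.p6), 5′ to 3′ on the strand of the gene, and capitals mark motif matches. They lie at chr12:85473640-85473889 for *Fos*, chr4:95052223-95052472 for *Jun* and chr8:84978749-84978998 for *Junb*, whose GENCODE start is 30 bases downstream of the RefSeq start.
Fos: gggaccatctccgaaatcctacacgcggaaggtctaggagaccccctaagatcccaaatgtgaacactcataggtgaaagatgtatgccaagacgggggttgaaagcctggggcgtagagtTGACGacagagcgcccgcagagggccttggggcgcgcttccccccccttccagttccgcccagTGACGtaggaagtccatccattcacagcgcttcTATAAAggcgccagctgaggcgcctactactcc
Jun: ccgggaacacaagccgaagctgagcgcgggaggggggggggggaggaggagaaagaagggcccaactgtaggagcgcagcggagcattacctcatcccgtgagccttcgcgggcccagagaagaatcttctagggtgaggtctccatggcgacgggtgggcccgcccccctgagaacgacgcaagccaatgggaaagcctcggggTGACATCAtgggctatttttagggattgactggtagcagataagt
Junb: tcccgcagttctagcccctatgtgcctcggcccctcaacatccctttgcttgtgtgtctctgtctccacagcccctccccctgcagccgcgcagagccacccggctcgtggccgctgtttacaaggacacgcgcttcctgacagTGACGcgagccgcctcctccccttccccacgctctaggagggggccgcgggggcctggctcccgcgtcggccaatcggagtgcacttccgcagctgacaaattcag
In *Fos* the capitals mark TGACG, the core of the cAMP response element, at -129 and -66 from the start, and TATAAA, the TATA box, at -33. In *Jun* they mark TGACATCA at -45, the variant that Jun and ATF proteins are known to bind, and in *Junb* TGACG at -106. Both strands were searched for TGANTCA (the AP-1 site), TGACGTCA, TGACG, TGACATCA and the serum response element, of which TGACGTCA also holds TGACG, and the gene strand was searched for TATAAA. Among 32851 RefSeq promoters of the same length, 6.75% held TGANTCA, 1.55% TGACGTCA, 17.8% TGACG, 2.93% TGACATCA, 1.47% the serum response element and 7.59% TATAAA. The matches are a description of these windows and not of bound sites, and motifs further upstream than 250 bases were not searched. *Fosb* had TGACG at -60, and *Fosl2* and *Jund* had no match but their RefSeq starts lie 671 and 1210 bases from the GENCODE starts, so their windows are not shown. *Fosl1* had no promoter entry.

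The members differed widely in level. In CPM per kb of exon, the median over the 9 WT libraries was 7.78 for *Jun*, 5.11 for *Jund*, 4.98 for *Junb*, 2.19 for *Fos*, 0.860 for *Fosl1*, 0.50 for *Fosl2* and 0.0448 for *Fosb*. In Tet2-KO the same quantity was 3.35 for *Jund*, 3.17 for *Jun*, 2.0 for *Junb*, 1.01 for *Fos*, 0.651 for *Fosl1*, 0.283 for *Fosl2* and 0.0570 for *Fosb*. The 3 Jun genes thus stood above the 4 Fos genes in both genotypes. Their ranges in WT were 5.59 to 8.65 for *Jun*, 4.21 to 7.03 for *Jund* and 3.82 to 5.87 for *Junb*, so neighbours in that order overlapped, and *Fos*, at 1.36 to 2.79, lay below all 3. In Tet2-KO, *Jund* at 2.69 to 3.98 and *Jun* at 1.94 to 4.09 overlapped, while *Junb* at 1.59 to 2.25 lay below every value of *Jund*. The ranges of *Fos* and *Fosl1* overlapped in both genotypes in part, at 0.530 to 1.46 for *Fosl1* in WT and at 0.484 to 1.24 for *Fos* against 0.329 to 1.06 for *Fosl1* in Tet2-KO. *Fosl1* and *Fosl2* also overlapped, with *Fosl2* at 0.379 to 0.917 in WT and 0.169 to 0.367 in Tet2-KO, and *Fosb* lay below every value of *Fosl2*, at 0.0311 to 0.266 in WT and 0.0249 to 0.0906 in Tet2-KO. The feature type used for counting is not given, and the nested genes above were read as counts over whole gene spans, introns included. Per kb of span instead of exon, *Fosl2* at 0.219 stood above *Fosl1* at 0.208 in WT, and the other places of the medians did not move. The overlaps did change by span. In WT, *Junb* at 2.08 to 3.19 then lay below every value of *Jund* at 4.21 to 7.03. *Fos* lay above every value of *Fosl1*, at 0.947 to 1.94 against 0.128 to 0.353 in WT. In Tet2-KO these were 0.336 to 0.860 against 0.0797 to 0.258. *Fosb*, at up to 0.2256 in WT and 0.077 in Tet2-KO, overlapped *Fosl2*, which began at 0.1665 and 0.074.

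Tet2-KO cells had less nascent RNA of *Fos*, *Jun* and *Junb* on both scales, while the remaining members depended on the scale. Averaged over the EU times and per ERCC read, *Fos*, *Jun* and *Junb* were lower and no member was higher among the 6 tested, beside 4.15% of all genes tested that were lower and 80.5% that were higher. When expressed as a share of gene reads, all 6 tested members were lower, beside 27.9% of all genes tested that were lower and 28.6% that were higher. *Fosb* had too few reads to be tested. The median log2 fold change of the 6 members was -0.30 per ERCC read, where the median of all genes tested was 0.70, and -1.0 as a share, where that median was 0.0027. The members lay below the median gene. Changing the scale shifts all genes by nearly the same amount, so this distance is about equal on both by construction. The libraries are bulk, so fewer cells that transcribe a gene and less nascent RNA per cell cannot be told apart.

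**Figure D1:**
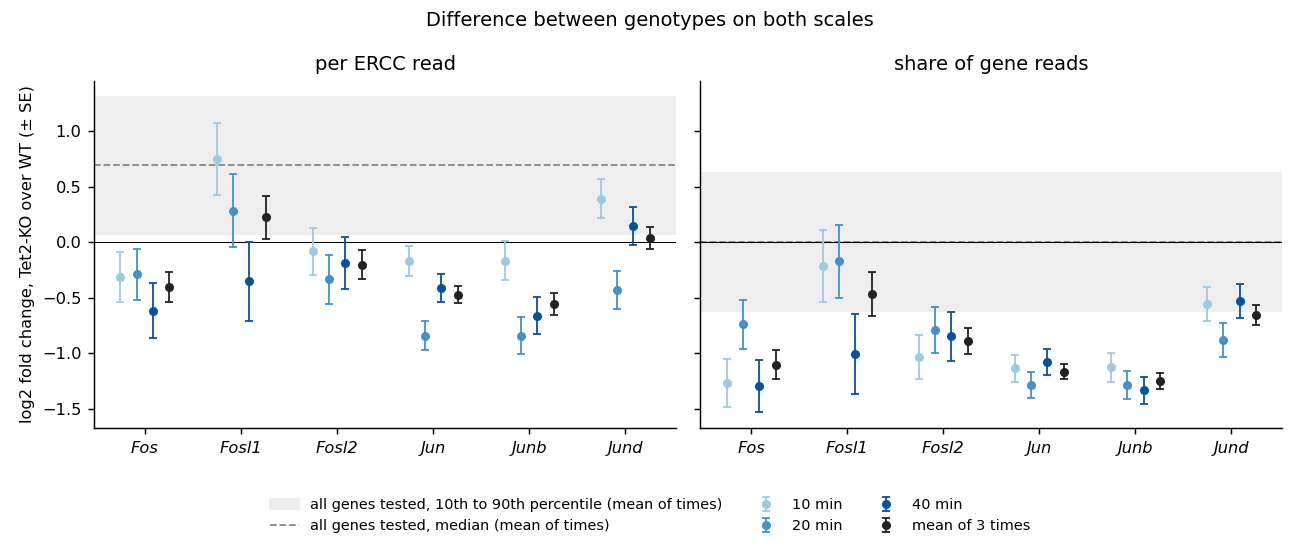
Log2 fold change of Tet2-KO over WT (y axis, ± SE from the edgeR fit) for the 6 members tested, at each EU time and averaged over the times, per ERCC read (left) and as a share of gene reads (right). The dashed line is the median and the grey band the 10th to 90th percentile of all genes tested, and *Fos*, *Jun* and *Junb* averaged over the times lie below 0 in both panels.

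*Jun*, the founding member of the family and the partner of Fos proteins, had the most reads. Per 1000 ERCC reads, WT libraries held 1.04, 0.907 and 0.80 reads of *Jun* at 10 min, 3.5, 3.98 and 3.64 at 20 min and 6.03, 6.92 and 6.6 at 40 min. Tet2-KO libraries held 0.593, 0.905 and 0.962 at 10 min, 1.94, 2.06 and 2.2 at 20 min and 4.85, 4.67 and 5.18 at 40 min. The genotypes overlapped at 10 min, and every Tet2-KO library was below every WT library at 20 and 40 min. All p-values below come from the quasi-likelihood test of edgeR, adjusted by Benjamini-Hochberg. The log2 fold change per ERCC read averaged over the times was -0.47 ± 0.08 (SE, n = 9 libraries per genotype, adjusted p = 2.4e-09). It was -0.17 ± 0.14 at 10 min (edgeR adjusted p = 0.24), -0.84 ± 0.13 at 20 min (3.8e-09) and -0.41 ± 0.13 at 40 min (0.0026). The level of *Jun* per ERCC read was therefore 1.79-fold lower at 20 min and 1.33-fold lower at 40 min.

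The separation of *Jun* was complete as a share of gene reads. In CPM, WT libraries held 22.4, 17.8 and 18.7 of *Jun* at 10 min, 24.2, 25.3 and 25.9 at 20 min and 24.8, 26.8 and 27.6 at 40 min. Tet2-KO libraries held 6.18, 10.1 and 9.55 at 10 min, 10.1, 9.58 and 10.4 at 20 min and 11.3, 12.8 and 13 at 40 min. The highest Tet2-KO library, at 13, was below the lowest WT library, at 17.8. Its share changed by -1.17 ± 0.07 on the log2 scale averaged over the times (edgeR adjusted p = 2.0e-16), or 2.25-fold lower.

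*Junb*, a Jun protein that activates transcription less strongly than Jun at many promoters, followed the same course at a lower level. Per 1000 ERCC reads, WT libraries held 0.409, 0.461 and 0.383 reads of *Junb* at 10 min, 1.57, 1.87 and 1.63 at 20 min and 3.23, 2.96 and 3.23 at 40 min. Tet2-KO libraries held 0.371, 0.328 and 0.417 at 10 min, 0.883, 1.07 and 0.879 at 20 min and 2.22, 1.81 and 1.95 at 40 min. As for *Jun*, the genotypes overlapped at 10 min and were apart at 20 and 40 min. The log2 fold change per ERCC read was -0.56 ± 0.10 averaged over the times (edgeR adjusted p = 3.4e-08), -0.17 ± 0.17 at 10 min (0.37), -0.84 ± 0.17 at 20 min (3.1e-06) and -0.66 ± 0.16 at 40 min (1.4e-04). *Junb* stood at 8.79 to 13.5 CPM in WT and at 3.66 to 5.17 CPM in Tet2-KO over the 9 libraries of each, with no overlap. The log2 fold change in share was -1.25 ± 0.07 averaged over the times (edgeR adjusted p = 2.1e-16), or 2.38-fold lower.

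*Jund*, the Jun protein that most cells make without a stimulus, depended on the scale. Per 1000 ERCC reads, WT libraries held 0.365, 0.486 and 0.301 reads of *Jund* at 10 min, 1.42, 1.84 and 1.18 at 20 min and 2.06, 2.2 and 2.38 at 40 min. Tet2-KO libraries held 0.431, 0.522 and 0.56 at 10 min, 0.933, 1.2 and 1.14 at 20 min and 2.85, 2.06 and 2.46 at 40 min. The genotypes overlapped at every time on this scale. The log2 fold change per ERCC read averaged over the times was 0.03 ± 0.10 (edgeR adjusted p = 0.75), with an interval of 2 SE on each side of -0.16 to 0.23. It was 0.39 ± 0.17 at 10 min (edgeR adjusted p = 0.029), -0.43 ± 0.17 at 20 min (0.021) and 0.14 ± 0.17 at 40 min (0.44). The direction thus differed between the times, and neither call was kept when single libraries were left out. The 10 min call was lost without WT replicate 1 or 3 or Tet2-KO replicate 2 or 3 (0.24 to 0.36), and the 20 min call without WT replicate 2 (-0.25) or Tet2-KO replicate 1 (-0.33).

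*Jund* was lower in Tet2-KO at every time as a share of gene reads. In CPM, it stood at 7.03 to 11.7 in WT and at 4.49 to 6.65 in Tet2-KO, with no overlap. Averaged over the times, the log2 fold change in share was -0.66 ± 0.09 (edgeR adjusted p = 7.7e-08), or 1.58-fold lower. For *Jun* and *Junb* the corresponding values were -1.17 and -1.25, and the difference between members was not tested.

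**Figure D2:**
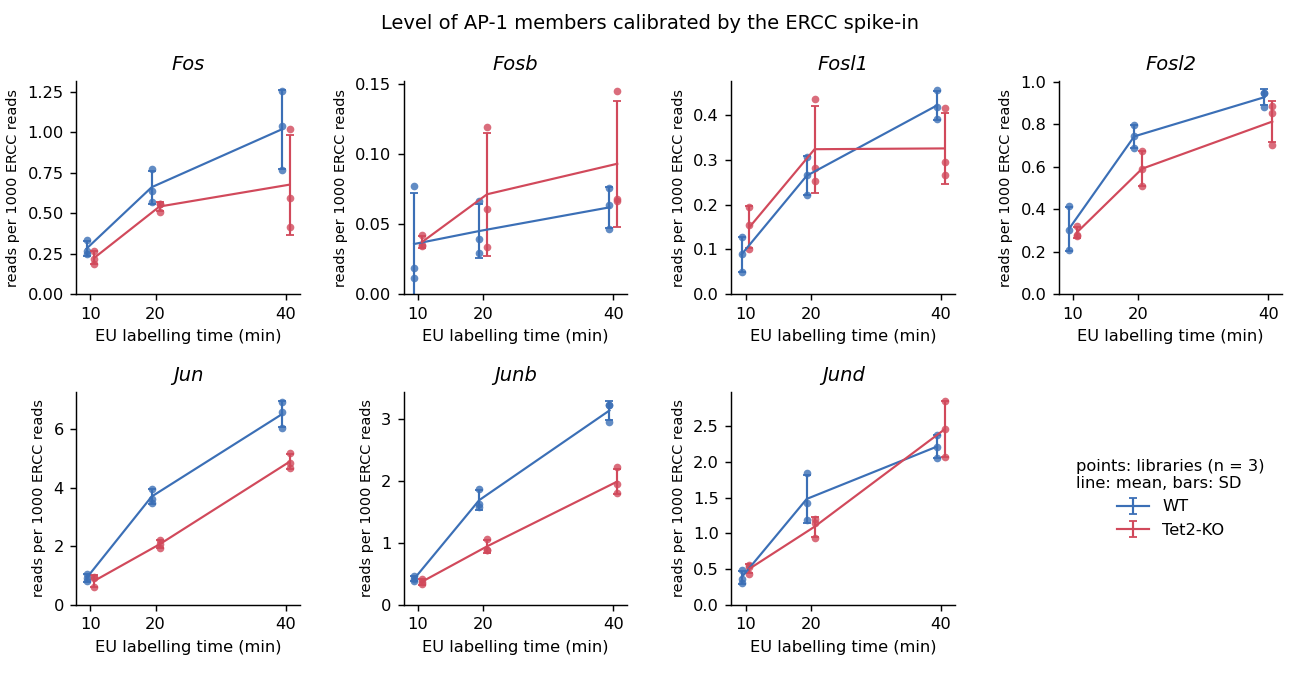
Reads per 1000 ERCC reads (y axis, from 0 and scaled for each gene) against EU labelling time (x axis, min) for the 7 members. Points are libraries, lines join the means of 3 libraries and bars are SD, cut at 0 for *Fosb*, and *Jun* and *Junb* in Tet2-KO lie below WT at 20 and 40 min.

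*Fos*, the classic immediate early gene and partner of Jun, had fewer reads and a wider spread. Per 1000 ERCC reads, WT libraries held 0.265, 0.333 and 0.246 reads of *Fos* at 10 min, 0.772, 0.573 and 0.64 at 20 min and 1.26, 1.04 and 0.767 at 40 min. Tet2-KO libraries held 0.269, 0.189 and 0.217 at 10 min, 0.558, 0.558 and 0.51 at 20 min and 1.02, 0.416 and 0.597 at 40 min. Tet2-KO libraries lay below all WT libraries at 20 min, and the genotypes overlapped at 10 and 40 min. Averaged over the times, *Fos* changed per ERCC read by -0.41 ± 0.14 on the log2 scale (edgeR adjusted p = 0.0037). At single times it was -0.31 ± 0.23 at 10 min (edgeR adjusted p = 0.19), -0.29 ± 0.23 at 20 min (0.28) and -0.62 ± 0.25 at 40 min (0.019). The call at 40 min was lost without WT replicate 1 (-0.43), Tet2-KO replicate 2 (-0.34) or Tet2-KO replicate 3 (-0.55).

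As a share, *Fos* was separated at every time. In CPM, WT libraries held 5.7, 6.56 and 5.75 of *Fos* at 10 min, 5.34, 3.65 and 4.56 at 20 min and 5.16, 4.01 and 3.21 at 40 min. Tet2-KO libraries held 2.8, 2.11 and 2.15 at 10 min, 2.91, 2.59 and 2.42 at 20 min and 2.37, 1.14 and 1.51 at 40 min. These values rest on 66 to 146 reads per library in WT and 23 to 63 in Tet2-KO. Its log2 fold change in share was -1.10 ± 0.13 averaged over the times (edgeR adjusted p = 4.8e-09), or 2.15-fold lower. At 20 min it was -0.74 ± 0.22 (0.0068), a call that was lost without WT replicate 1 (-0.60).

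*Fosl2*, which encodes a Fos protein (FRA2) without the strong activation domain of FOS, was not called per ERCC read at any time. Per 1000 ERCC reads, WT libraries held 0.413, 0.304 and 0.207 reads of *Fosl2* at 10 min, 0.742, 0.689 and 0.796 at 20 min and 0.949, 0.949 and 0.883 at 40 min. Tet2-KO libraries held 0.273, 0.318 and 0.28 at 10 min, 0.507, 0.591 and 0.673 at 20 min and 0.702, 0.851 and 0.885 at 40 min. All Tet2-KO libraries were below WT at 20 min, with overlap at 10 and 40 min. Its log2 fold change per ERCC read was -0.20 ± 0.13 averaged over the times (edgeR adjusted p = 0.13, 2 SE on each side -0.46 to 0.06), and without WT 10 min replicate 3 it was -0.28 and called (0.037). In CPM *Fosl2* stood at 3.67 to 8.88 in WT and 1.64 to 3.55 in Tet2-KO, with a log2 fold change in share of -0.89 ± 0.12 (edgeR adjusted p = 8.9e-08). The WT library with the highest share, at 8.88, was 10 min replicate 1.

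*Fosl1*, which encodes FRA1, a Fos protein made in proliferating cells downstream of ERK, had 24 to 65 reads per library in WT and 12 to 39 in Tet2-KO. Per 1000 ERCC reads, WT libraries held 0.0501, 0.0891 and 0.127 reads of *Fosl1* at 10 min, 0.221, 0.266 and 0.307 at 20 min and 0.39, 0.456 and 0.418 at 40 min. Tet2-KO libraries held 0.154, 0.194 and 0.10 at 10 min, 0.254, 0.435 and 0.282 at 20 min and 0.294, 0.416 and 0.265 at 40 min. The genotypes overlapped at every time. Per ERCC read the log2 fold change was 0.23 ± 0.19 averaged over the times (edgeR adjusted p = 0.27). At single times it was 0.75 ± 0.32 at 10 min (edgeR adjusted p = 0.026), 0.28 ± 0.33 at 20 min (0.47) and -0.35 ± 0.36 at 40 min (0.37). The 10 min call was lost without WT replicate 1 (0.46), Tet2-KO replicate 1 (0.73) or Tet2-KO replicate 2 (0.52).

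As a share of gene reads *Fosl1* was lower at 40 min, at 0.686, 1.14 and 0.669 CPM in Tet2-KO against 1.6, 1.76 and 1.75 in WT, without overlap. The log2 fold change in share there was -1.01 ± 0.36 (edgeR adjusted p = 0.025), and averaged over the times it was -0.47 ± 0.20 (edgeR adjusted p = 0.042). The averaged call was lost in 11 of the 18 fits that left out 1 library, where values ran from -0.57 to -0.33, and the 40 min call in 4 of them, without WT 40 min replicate 2 (-0.99) or 3 (-0.98) or Tet2-KO 40 min replicate 1 (-0.89) or 3 (-0.88).

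*Fosb*, an immediate early gene best known from neurons, was close to the limit of detection. WT libraries held 37, 8 and 6 reads of *Fosb* at 10 min, 4, 8 and 6 at 20 min and 6, 6 and 4 at 40 min. Tet2-KO libraries held 8, 7 and 8 reads at 10 min, 6, 3 and 11 at 20 min and 3, 8 and 3 at 40 min. WT replicate 1 at 10 min stood alone at 37 reads, or 1.66 CPM with an exact 95% binomial interval of 1.17 to 2.29, which covers counting error only. In a fit without a filter on low counts the log2 fold change averaged over the times was 0.45 ± 0.38 per ERCC read (edgeR adjusted p = 0.38) and -0.25 ± 0.38 as a share (edgeR adjusted p = 0.80). A difference in *Fosb* was not detectable at this depth.

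**Figure D3:**
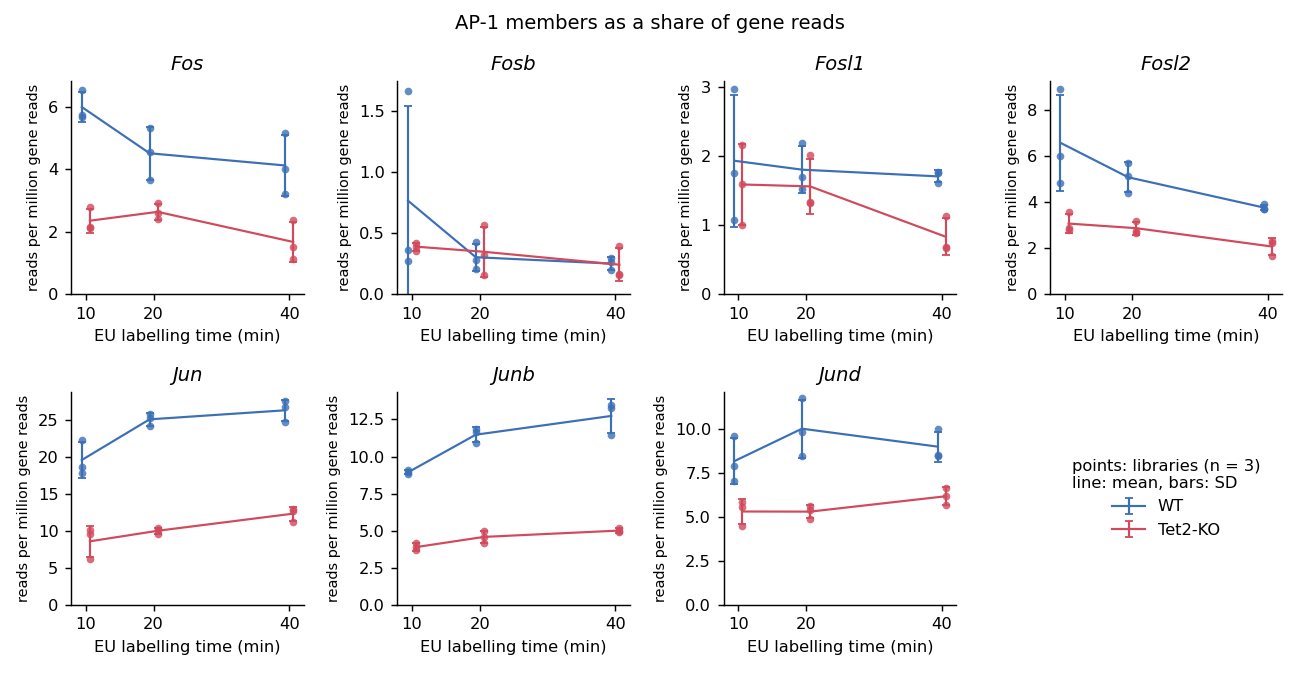
CPM, or reads scaled to 1000000 gene reads (y axis, from 0 and scaled for each gene) against EU labelling time (x axis, min) for the 7 members, with libraries as points, means of 3 libraries as lines and SD as bars, cut at 0 for *Fosb*. *Fos*, *Fosl2*, *Jun*, *Junb* and *Jund* in Tet2-KO lie below every WT library at each of the 3 times.

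Counted over the times, 5 of the 7 members (*Fos*, *Fosl2*, *Jun*, *Junb* and *Jund*) had every Tet2-KO library below every WT library of the same time as a share of gene reads, as did 13.9% of all genes tested. Per ERCC read no member did so at all 3 times, against 1.56% of all genes tested, while 51.6% of all genes tested stood wholly above WT and no member did. At 10 min per ERCC read, *Fosl1* and *Jund* were called higher, beside 79% of all genes tested, and no member was called lower, beside 2.1%. Neither tool gave a lower call for a member at 10 min on this scale, and the number of members lower at an unadjusted p under 0.05 was 0 in edgeR and in DESeq2. At 20 min *Jun*, *Junb* and *Jund* were called lower, beside 4.86% of all genes tested, and no member higher, beside 53.7%. At 40 min *Fos*, *Jun* and *Junb* were called lower, beside 2.84%, and no member higher, beside 68.2%. At 20 min, at 40 min and averaged over the times, 0 members were higher at an unadjusted p under 0.05 in edgeR or DESeq2 on either scale. As a share of gene reads, all tested members but *Fosl1* were called lower at 10 min (beside 21.4% of all genes tested, with 22.5% higher) and at 20 min (beside 18.2%, with 20.3% higher). All 6 were called lower at 40 min, beside 18.6%, with 19.7% higher.

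The feeder fibroblast markers named above moved with 2 groups. At 10 min their summed level was 33.7 to 34.2 CPM in WT and 8.82 to 12.6 in Tet2-KO. The WT range was 5.78 to 7.74 CPM at 20 min, where Tet2-KO held 21.0 to 22.4, and 7.38 to 8.54 CPM at 40 min, where Tet2-KO held 9.2 to 12. The log2 fold change in share of *Jun* was -1.13 at 10 min, -1.29 at 20 min and -1.08 at 40 min. For *Junb* it was -1.13, -1.29 and -1.33, and for *Fos* -1.27, -0.74 and -1.30. The 10 stem cell markers summed to 3372 to 3533 CPM in WT and 2545 to 2653 in Tet2-KO at all times, and the part of either marker list in these differences was not tested.

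Labelled RNA of every tested member accumulated with EU time. Per ERCC read, all 6 tested members were higher at 40 than at 10 min in WT, beside 96.7% of all genes tested, and in Tet2-KO, beside 94.7%. No member was lower, beside 0.01% of all genes tested in WT and 0.00502% in Tet2-KO. The steepest increases were those of *Junb* and *Jun*. In WT the log2 fold change per ERCC read from 10 to 40 min was 2.91 ± 0.16 for *Junb*, 2.83 ± 0.13 for *Jun* and 2.53 ± 0.17 for *Jund*, where the median of all genes tested was 2.26. It was 2.23 ± 0.32 for *Fosl1*, 1.86 ± 0.21 for *Fos* and 1.59 ± 0.21 for *Fosl2*, so *Fos* and *Fosl2* lay below that median. In Tet2-KO the values were 2.59 ± 0.14 for *Jun*, 2.41 ± 0.18 for *Junb*, 2.28 ± 0.18 for *Jund*, 1.56 ± 0.26 for *Fos*, 1.49 ± 0.24 for *Fosl2* and 1.13 ± 0.37 for *Fosl1*, where the median of all genes tested was 2.0. The 3 Jun genes stood above the median gene in both genotypes and *Fos* and *Fosl2* below it. *Fosl1* was below it in Tet2-KO and within its SE of it in WT.

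**Figure D4:**
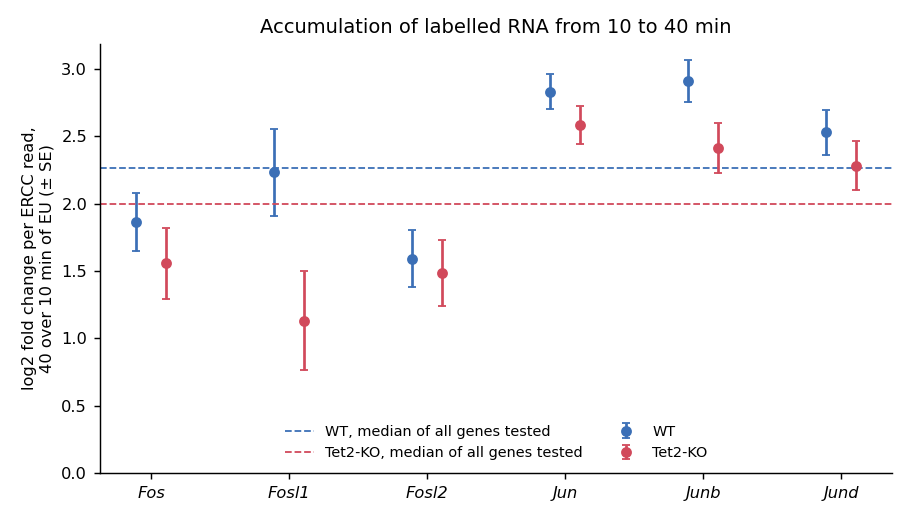
Log2 fold change per ERCC read from 10 to 40 min of EU (y axis, ± SE) for the 6 members tested, in WT (blue) and Tet2-KO (red), with the median of all genes tested in each genotype as a dashed line (2.26 and 2.0). *Jun*, *Junb* and *Jund* lie above the line of their genotype, and *Fos* and *Fosl2* below it.

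As a share of gene reads, where the median gene stays near 0, *Jun* and *Junb* rose from 10 to 40 min in both genotypes. In WT the log2 fold change in share was 0.53 ± 0.11 for *Jun* (edgeR adjusted p = 1.4e-04) and 0.61 ± 0.11 for *Junb* (3.9e-05), 2 of the 6 tested, beside 22.8% of all genes tested that rose. Tet2-KO gave 0.58 ± 0.13 for *Jun* (edgeR adjusted p = 5.0e-04) and 0.41 ± 0.14 for *Junb* (0.022), again 2 of the 6, beside 20.1%. The call of *Junb* in Tet2-KO was lost without Tet2-KO 10 min replicate 1 (0.40) or 2 (0.38) or 40 min replicate 1 (0.39). *Fosl2* fell in WT by 0.70 on the log2 scale (SE 0.19, edgeR adjusted p = 0.0029), 1 of the 6 tested, beside 22% of all genes tested that fell. Its call was lost without WT 10 min replicate 1 (-0.45), and *Fos* was called as well without WT 40 min replicate 1 (-0.63). The feeder markers were also higher in WT at 10 than at 40 min, and their part in this difference was not tested. In Tet2-KO no member was called lower in share by edgeR or DESeq2, beside 16.8% of all genes tested, and 2 were lower at an unadjusted p under 0.05 in each, *Fosl1* and *Fosl2* in edgeR (-0.87 and -0.52). Leaving out single libraries gave a call for *Fosl1* in 4 of 18 fits, without WT 10 min replicate 1 (-0.88) or 3 (-0.88), Tet2-KO 10 min replicate 3 (-1.11) or Tet2-KO 40 min replicate 2 (-1.17). It gave a call for *Fosl2* without WT 10 min replicate 1 (-0.53) or 3 (-0.53), and for *Fos* without Tet2-KO 40 min replicate 1 (-0.80).

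The increase from 10 to 40 min was not shown to differ between the genotypes for any member. Per ERCC read the interaction was called for 0 of the 6 tested by edgeR and by DESeq2, beside 19.3% of all genes tested that were lower and 0.552% that were higher. At an unadjusted p under 0.05, 2 members were lower in each tool, *Fosl1* and *Junb* in edgeR. Their log2 differences were -1.10 ± 0.48 for *Fosl1* (edgeR adjusted p = 0.086) and -0.50 ± 0.24 for *Junb* (0.13). Without WT 10 min replicate 3, 1 member, *Fosl1*, was called. As a share of gene reads 0 members were called by either tool and 0 had an unadjusted p under 0.05, beside 6.12% and 3.89% of all genes tested that were called lower and higher.

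Slopes of the level on EU time, taken by least squares over the 9 libraries of a genotype, gave the relative rate at which labelled RNA appeared. For *Jun* the slope was 0.180 ± 0.0150 (SE) reads per 1000 ERCC reads per min in WT and 0.137 ± 0.00524 in Tet2-KO. For *Junb* it was 0.0881 ± 0.00605 in WT and 0.0538 ± 0.00345 in Tet2-KO, and for *Fos* 0.0237 ± 0.00427 and 0.0139 ± 0.00504. The slope of *Jund* was 0.0575 ± 0.00877 in WT and 0.0655 ± 0.00613 in Tet2-KO. As log2 ratios of Tet2-KO over WT these were -0.40 ± 0.13 for *Jun*, -0.71 ± 0.14 for *Junb*, -0.77 ± 0.58 for *Fos* and 0.19 ± 0.26 for *Jund*, with -0.20 ± 0.36 for *Fosl2*, -1.08 ± 0.74 for *Fosl1* and 1.02 ± 1.28 for *Fosb*. The median over 15075 protein-coding genes with a positive slope in both genotypes was 0.62, and 10.45% of them had a ratio below 0. Only *Jun* and *Junb* had a ratio more than 2 SE from 0 among the 7, and for both the ratio depended on which times were used, with -1.16 for *Jun* and *Junb* alike from 10 to 20 min against 0.0072 and -0.47 from 20 to 40 min.

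The composition of the family was also described, as the share of each member in the reads of all 7, with no test between members. In WT *Jun* made up 34.9 to 39.7% of these reads at 10 min and 43.2 to 47.4% at 40 min, and in Tet2-KO 27.9 to 37.3% at 10 min and 40.4 to 45.4% at 40 min. The part of *Fos* in WT was 10.1 to 12.8% at 10 min but 5.35 to 8.98% at 40 min, and in Tet2-KO it was 7.58 to 12.7% and then 4.01 to 8.49%. The part of *Jun* was larger at 40 than at 10 min in both genotypes without overlap, and that of *Fos* was smaller in WT without overlap while its ranges overlapped in Tet2-KO. *Jund* made up 13.9 to 19.9% of the family reads in WT and 18.2 to 23.8% in Tet2-KO over all times. At 10 min there were 0.421 ± 0.101 reads of *Jund* per read of *Jun* in WT (SD, n = 3) and 0.629 ± 0.0849 in Tet2-KO. The ratio was 0.398 ± 0.0696 in WT and 0.528 ± 0.0518 in Tet2-KO at 20 min, and 0.34 ± 0.0214 in WT and 0.502 ± 0.0772 in Tet2-KO at 40 min. At 10, 20 and 40 min each Tet2-KO library had a higher ratio than each WT library. The ratio of *Junb* to *Jun* overlapped between the genotypes at each time. That of *Fos* to *Jun* overlapped at 10 and 40 min and was higher in each Tet2-KO library at 20 min. How often other pairs of genes are so separated was not counted. Summed over the 7, the family took 48.5 to 59.9 CPM in WT and 22.1 to 28.7 in Tet2-KO.

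**Figure D5:**
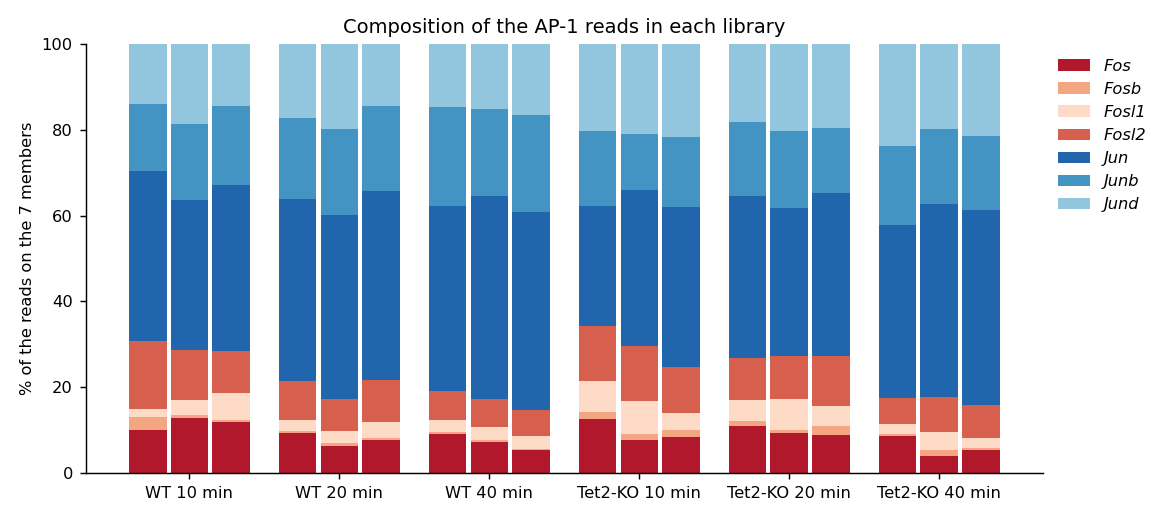
Percentage of the reads on the 7 members that fell on each member (y axis) in each of the 18 libraries, grouped by genotype and EU time (x axis). The part of *Jun* is larger at 40 than at 10 min, and that of *Jund* is 13.9 to 19.9% in WT and 18.2 to 23.8% in Tet2-KO.

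The genes around the family were taken as lists, each given as counts beside the background percentages above for the difference averaged over the times. Of 10 dimer partners from the ATF, BATF, JDP and MAF groups, all tested, 6 were higher and 1 lower per ERCC read, and 2 were higher and 5 lower as a share. *Jdp2*, which encodes a repressive partner of Jun, had a log2 fold change of 1.04 ± 0.07 per ERCC read, *Atf2*, which encodes a partner of Jun at TGACATCA sites, 0.87 ± 0.05, and *Batf3* -0.82 ± 0.39 with 2 to 23 reads per library, which DESeq2 did not call. As a share the largest changes in this list were -1.5 ± 0.36 for *Batf3*, -0.98 ± 0.15 for *Maff*, a small MAF protein, and -0.56 ± 0.09 for *Atf3*, a stress-induced partner of Jun. The median log2 fold change of the list was 0.36 per ERCC read and -0.33 as a share.

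Of 17 kinases and transcription factors upstream of the family, 14 were tested, and 2 of the others, *Mkl1* and *Mkl2*, had no row under these symbols. Per ERCC read 13 were higher and 0 lower, also with DESeq2 and at an unadjusted p under 0.05, and as a share 5 were higher and 3 lower. The list had a median log2 fold change of 0.67 per ERCC read and -0.02 as a share, close to the medians of all genes tested. *Mapk10*, which encodes the JNK3 kinase, had 1.35 ± 0.12 per ERCC read and 0.65 ± 0.10 as a share, and *Map2k1*, which encodes the MEK1 kinase that PD0325901 inhibits, had 1.05 ± 0.05 per ERCC read. *Map2k4*, which encodes a kinase that activates JNK, had 0.94 ± 0.05 per ERCC read. *Elk3* and *Map2k2*, which encode an ETS factor of the serum response and the MEK2 kinase, had -0.65 ± 0.05 and -0.52 ± 0.02 as a share. Per 1000 ERCC reads the mean of *Map2k2* was 6.18 in WT and 8.83 in Tet2-KO at 10 min. It was 22.8 and 20.6 at 20 min and 37.1 and 40.7 at 40 min. For *Elk3* these means were 2.16 and 2.45, 4.29 and 3.62, and 4.91 and 5.71.

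Of 15 other immediate early genes, 13 were tested and *Cyr61* had no row under this symbol. Per ERCC read 3 were higher and 2 lower, and as a share 0 were higher and 10 lower, with DESeq2 giving 0 higher and 9 lower and 0 higher at an unadjusted p under 0.05 in edgeR. The list had a median log2 fold change of 0.04 per ERCC read and -0.65 as a share. *Egr1*, a zinc finger factor induced by ERK, changed most in the list. At 10 min its level was 61.1 ± 4.56 CPM (SD, n = 3) in WT and 1.79 ± 0.474 in Tet2-KO. By 40 min it was 7.53 ± 0.846 CPM in WT and 1.05 ± 0.139 in Tet2-KO. *Egr2*, its relative, had a log2 fold change of -1.36 ± 0.35 per ERCC read and -2.05 ± 0.31 as a share, with 1 to 29 reads per library. *Nr4a3*, a nuclear receptor, was higher per ERCC read at 1.10 ± 0.31, with 3 to 25 reads per library. *Ier3* was lower as a share at -0.75 ± 0.29, with 4 to 28 reads per library. At 40 min the libraries stood at 6.98 to 8.50 CPM of *Egr1* in WT and 0.892 to 1.16 in Tet2-KO. The WT libraries at 10 min were also those with the highest feeder markers, whose part in these values was not tested.

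Of 13 genes known as AP-1 targets in other cells, 10 were tested. Per ERCC read 6 were higher and 1 lower, and as a share 1 was higher and 6 lower. *Vegfa*, an angiogenic growth factor, had a log2 fold change of 2.15 ± 0.07 per ERCC read and 1.46 ± 0.06 as a share, and *Plaur*, the urokinase receptor, -0.67 ± 0.10 and -1.36 ± 0.08. *Il6*, a cytokine, was higher per ERCC read at 1.41 ± 0.39, with only 1 to 13 reads per library. *Mmp9*, a matrix protease, was lower as a share at -0.77 ± 0.24, with 7 to 49 reads per library. The median of the list was 0.47 per ERCC read and -0.23 as a share, beside 0.70 and 0.0027 for all genes tested.

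The genes most like *Fos* and *Jun* in pattern were found as those with the smallest root mean square difference of centred log2 share over the 18 libraries, among 15152 genes. For *Jun* they included *Spry2* at 0.18 and *Arcn1* at 0.20, and the value for *Junb* was 0.18. *Spry2*, which encodes an inhibitor of ERK signalling, had 57.5 ± 2.65 CPM (SD, n = 3) in WT at 10 min and 69.2 ± 1.59 by 40 min, while Tet2-KO had 26.6 ± 2.78 CPM and then 36.6 ± 0.215. For *Fos* they were *Tmem82* at 0.20, *Fhl1* at 0.21 and *Dusp5* at 0.23, with *Fosl2* at 0.34. *Dusp5*, which encodes a phosphatase of ERK, had 22.6 ± 0.522 CPM in WT at 10 min and 14.5 ± 0.685 by 40 min, while Tet2-KO had 8.82 ± 0.145 CPM and then 7.57 ± 0.513. *Tmem82* and *Fhl1*, which lay nearer to *Fos*, had 9.15 ± 1.3 and 44.8 ± 2.99 CPM in WT at 10 min. In Tet2-KO at 10 min they had 4.31 ± 0.152 and 19.5 ± 1.03. *Arcn1* had 132 ± 5.15 CPM in WT and 50.1 ± 3.92 in Tet2-KO at 10 min. On the scale of ERCC reads *Spry2* and *Arcn1* were again among the nearest to *Jun*, and *Tgfa* took the place of *Dusp5* for *Fos*. These are descriptions over libraries that share groups and carry no test.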

How the data were processed

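EU-labelled RNA was sequenced, for WT and for Tet2-KO cells, with a strand-keeping kit in 18 libraries (6 groups of 3). The authors trimmed reads with Trimmomatic 0.39, aligned them to mm10 with HISAT2 2.2.1 and counted them on GENCODE M19 genes with HTSeq 0.12.4, and they deposited whole-number counts per gene and per ERCC RNA for each library. The HTSeq settings are not given in the sources used here. Rows that name no gene stayed out: 13.2 to 16.9% of the reads fell on no feature, 2.32 to 2.50% were ambiguous and 5.24 to 5.99% were not uniquely aligned. Gene names came from GENCODE M21, which holds 54409 of the 54446 identifiers. Mean chi-square values of the 18 replicate pairs were 1.66 to 5.52, so no pair agreed within sampling noise.

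Counts were fitted with edgeR 4.0.16 in R 4.3.3 (quasi-likelihood test, 6 groups, Benjamini-Hochberg adjustment over 19910 genes kept by its filter at a minimum count of 10, threshold 0.05). The study instead converted CPM to amounts by a linear fit to the ERCC RNAs. Here library sizes were the ERCC read totals, and a second fit used TMM on gene reads for the share. ERCC RNA was added in proportion to total RNA, so values per ERCC read are relative to total RNA and not to cell number. The SE was taken from the F statistic, as the absolute log2 fold change over its root. DESeq2 1.42.0 was an alternative. The fitting was checked on simulated counts with the same spread for all genes and no shift of most genes between genotypes or EU times. The check does not cover the shift per ERCC read seen here. The 7 members and the gene lists were chosen with earlier results of these data known. In each of the 4 lists around the family the 3 called genes with the largest absolute log2 fold change, averaged over EU times, were named per scale, and all members were described. Marker lists were given as sums, with counts of called genes for the stem cell markers. *Zfp42*, *Pou5f1*, *Tbx3*, *Sox2* and *Lum* were named after their values were seen. The 3 protein-coding genes most like *Fos* and *Jun* were sought, of which 1 is not reported here. Likeness used log2 of the share with 0.5 added, centred per gene.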

Additional observations from a re-analysis of the deposited data

How the results depend on the processing

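The calls of *Fos*, *Jun* and *Junb* per ERCC read, averaged over the EU times, were kept in all 18 fits that left out 1 library, without a filter, with a stricter filter, with DESeq2 and with the replicate block. The scale changed most. With TMM or DESeq2 gene size factors the numbers of members lower were 5 at 10 min, 5 at 20 min, 6 at 40 min and 6 averaged over the times, with 0 higher at 10 min, and 2 were higher and 1 lower from 10 to 40 min in WT and 2 higher in Tet2-KO. Directions then turned, with TMM and DESeq2 values of -0.21 and -0.21 for *Fosl1* and -0.56 and -0.56 for *Jund* at 10 min, -0.17 and -0.18 for *Fosl1* at 20 min, -0.53 and -0.54 for *Jund* at 40 min, and -0.47 and -0.47 for *Fosl1* and -0.66 and -0.66 for *Jund* averaged over the times. From 10 to 40 min they were -0.43 and -0.44 (*Fos*), -0.078 and -0.082 (*Fosl1*) and -0.70 and -0.71 (*Fosl2*) in WT, and -0.46 and -0.47, -0.87 and -0.89, and -0.52 and -0.53 in Tet2-KO. DESeq2 with ERCC size factors called 1 member higher at 10 min, and as a share without a filter 1 was higher from 10 to 40 min in Tet2-KO. Same-numbered libraries showed little shared deviation (45 pairs, -0.22 to 0.18, 6 above 0.1), and the main fits did not pair dishes by number. These values do not show whether same-numbered dishes were handled together. With the replicate block the share counts from 10 to 40 min became 2 lower in WT and 1 lower in Tet2-KO, and it changed no other call. Leaving out 1 library gave 0 to 2 members higher at 10 min, 0 to 1 lower in the interaction per ERCC read, and as a share 0 to 2 lower from 10 to 40 min in WT, and 1 to 2 higher and 0 to 2 lower in Tet2-KO. The second lower member in WT without 10 min replicate 2 or 3 was *Fosb*, which then passed the filter and rests on WT 10 min replicate 1. Values that crossed 0 in these fits were *Fosl2* (-0.31 to 0.19) and *Jun* (-0.30 to 0.027) at 10 min, *Jund* averaged over the times (-0.016 to 0.10), and in share *Fosl1* at 10 min (-0.52 to 0.22) and from 10 to 40 min in WT (-0.39 to 0.34). The log2 ratio of slopes of *Fos* was -1.46 to -0.32 without single libraries. Log2 ratios of slopes moved to -1.40 for *Fos* and 0.27 for *Fosl2* from 20 and 40 min alone. For *Fosl1* they were -0.13 through the origin, -0.012 from 10 and 20 min and -6.49 from 20 and 40 min. On the share of gene reads they were -0.70 for *Jun*, -1.75 for *Junb* and 0.92 for *Jund*. Per ERCC read the ratios of these 3 genes were -1.16, -1.16 and -0.90 from 10 and 20 min. From 20 and 40 min they were 0.0072, -0.47 and 0.90. By gene span *Fosl1* and *Fosl2* ranked 6 and 5 in WT. The share fits without a filter, with the block and without single libraries were chosen after seeing the data. The cause of these changes was not tested. *Fosb*, with 3 to 11 reads in 17 libraries, was limited by depth.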

Other observations

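The genes that overlap *Jun*, *Junb* and *Fosl1* on the opposite strand were also read. *Junos*, the antisense partner of *Jun*, had a log2 fold change of Tet2-KO over WT, averaged over the EU times, of 0.22 ± 0.10 per ERCC read (edgeR quasi-likelihood test, Benjamini-Hochberg adjusted p = 0.036) and -0.47 ± 0.09 as a share of gene reads (2.8e-05). *Prdx2*, a peroxide-reducing enzyme at the end of *Junb*, had 0.79 ± 0.06 per ERCC read (edgeR adjusted p = 4.4e-29) and 0.10 ± 0.04 as a share (0.044). *Ccdc85b*, opposite *Fosl1*, had 0.42 ± 0.16 per ERCC read (edgeR adjusted p = 0.0087) and -0.28 ± 0.15 as a share (0.12). Per ERCC read *Junos* had 0.22 at 10 min (edgeR adjusted p = 0.23), -0.13 at 20 min (0.51) and 0.57 at 40 min (0.0022), and on this scale 80.5% of all genes tested were higher averaged over the times. *Gm11175*, opposite *Jund*, had 0 to 11 reads per library and was not tested.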
